A study of Mus musculus with 8 samples.

Results

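The Id genes Id1, Id2, Id3 and Id4, the homeobox genes Msx1 and Msx2, the decoy receptor gene Bambi and the basic helix-loop-helix gene Atoh8 are known transcriptional responders to bone morphogenetic protein (BMP), and they were taken here by symbol, 8 of the 54532 genes of the table. Their RNA was measured in lens capsules of wild-type C57BL/6 mice aged 6 to 8 weeks, taken 7 days after surgery, in 4 sham and 4 ASC libraries. In ASC eyes a needle passed through the cornea cut the front of the lens capsule. In sham eyes, by the design text of the series, the cornea was cut and the capsule was left whole, although the sample labels carry the needle protocol for both groups. ASC is the submitters' name for the injury model, which they describe as a model of fibrotic cataract. The labels call the libraries biological replicates and do not say how many capsules or mice entered each, so the p-values measure the spread between these libraries.

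BMP ligands bind paired type I and type II receptors, which phosphorylate Smad1, Smad5 and Smad9, and these enter the nucleus with Smad4. The Id genes are among the most direct targets of these Smads. Their products have a helix-loop-helix but no DNA-binding region, so they pair with E proteins and other helix-loop-helix factors and keep them off DNA. In the lens, BMP signalling is needed to form the placode and takes part in fibre differentiation, and in epithelial cells BMP7 and Id proteins are known to oppose the epithelial-mesenchymal transition that TGF-beta drives. Smurf1, which the series is titled after, is a ubiquitin ligase of the BMP Smads.

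Library totals ran from 14420494 to 21141582 counts. Lens genes were abundant in both groups: 8 epithelial markers summed to 4124 ± 470 CPM (the usual depth-scaled count unit, here on library sizes adjusted by the TMM method) in sham and 4131 ± 691 CPM in ASC (SD, n = 4 each), and 10 fibre markers to 9829 ± 1384 and 12910 ± 4039 CPM. Of 7 tested corneal epithelium markers 3 rose in edgeR, Krt5, Krt12 and Krt6a, with sham means of 0.841, 0.435 and 0.218 CPM. The 10 listed summed to 492 ± 113 and 621 ± 250 CPM. That sum was mostly Aldh3a1 (483 ± 111 and 592 ± 241 CPM), so it says little of the other corneal markers. Of 6 tested fibroblast and keratocyte markers 1 rose, Col1a1, from 1.55 ± 0.434 to 4.51 ± 0.469 CPM (edgeR adjusted p = 0.0186), while the sum of the 8 listed, mostly Pdgfra (337 ± 27.9 and 311 ± 62.4 CPM), was 391 and 387 CPM. Of the marker sums, 2 of 10 had an exact permutation p under 0.06: 6 red cell genes summed to 40.1 to 62.8 CPM in sham and 73.9 to 370 CPM in ASC (exact two-sided permutation p = 0.0286, the smallest that 70 assignments give; adjusted p = 0.286), and 8 iris and pigment epithelium genes to 43.8 to 239 CPM in sham and 211 to 839 CPM in ASC (exact permutation p = 0.0571; adjusted p = 0.286). Endothelial cells are known for strong Id1 and Id3 expression, and their 10 markers summed to 15.4 to 28.5 CPM in sham and 16.6 to 28.7 CPM in ASC (exact permutation p = 0.571). Library ASC 4 had the highest sums of all 8 libraries for iris and pigment epithelium (839 CPM) and red cells (370 CPM). Its corneal epithelium sum (959 CPM), mostly Aldh3a1, was also the highest. So was its endothelial sum (28.7 CPM), though barely above that of sham 3 (28.5 CPM). In none of the 10 marker lists was a gene at 0 in all libraries, and the part of these cells in the values below was not tested. In such tissue RNA, fewer cells of a type and less RNA per cell cannot be told apart.

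The stretches before the start sites of Id2, Id3 and Id4 are shown so that their letters can be read directly. From the reference table, RefSeq on build GRCm38.p6, stretches were taken for 6 of the 8 genes, Id2, Id3, Id4, Msx1, Msx2 and Atoh8. None was taken for Id1 or Bambi. The search passed over the entries of a whole chromosome, so it does not show that the reference table lacks both genes. The matches below were not compared with Smad sites mapped in other work. The 250 bases before the start are given 5′ to 3′ on the gene's strand. Capitals mark GGCGCC, a core of GC-rich sites bound by BMP Smads, and CAGAC, a core of the Smad-binding element, each on either strand (GTCTG is CAGAC on the other strand).
Id2, chr12:25096093-25096342, minus strand: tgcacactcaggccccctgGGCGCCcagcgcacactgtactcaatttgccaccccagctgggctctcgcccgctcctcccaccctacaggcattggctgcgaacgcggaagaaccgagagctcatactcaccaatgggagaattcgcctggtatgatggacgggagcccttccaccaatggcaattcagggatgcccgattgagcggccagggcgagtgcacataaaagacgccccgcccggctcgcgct
Id3, chr4:136143572-136143821, plus strand: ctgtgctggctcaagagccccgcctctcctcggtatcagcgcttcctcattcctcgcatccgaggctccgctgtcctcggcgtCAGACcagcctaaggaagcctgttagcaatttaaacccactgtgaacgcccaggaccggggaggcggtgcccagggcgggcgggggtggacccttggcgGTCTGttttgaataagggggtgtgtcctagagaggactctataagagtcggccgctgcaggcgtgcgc
Id4, chr13:48260866-48261115, plus strand: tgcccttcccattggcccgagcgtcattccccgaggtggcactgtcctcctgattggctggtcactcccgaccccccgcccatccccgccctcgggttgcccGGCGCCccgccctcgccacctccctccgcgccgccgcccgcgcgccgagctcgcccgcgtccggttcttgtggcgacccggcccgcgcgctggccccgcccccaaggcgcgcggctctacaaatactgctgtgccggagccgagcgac

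GGCGCC occurred once in Id2, 231 bases before the start, and once in Id4, 148 bases before it. Id3 held CAGAC at 167 bases and, on the other strand, at 68 bases before the start, and no GGCGCC. Among all 32851 promoters of the table, 9.59% held GGCGCC and 42.2% held CAGAC in the same 250-base window. Neither was found in these windows of Msx1, Msx2 or Atoh8. The E-box CANNTG, the site of the helix-loop-helix factors that Id proteins hold back, was found once in Id2, Msx1 and Msx2, 2 times in Atoh8 and not in Id3 or Id4, against 66.2% of all promoters with at least 1. A match is a description of letters and no evidence of binding.

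All 8 genes had enough counts to be tested, and none passed edgeR's quasi-likelihood test after adjustment over 15857 genes, against 1.02% of all genes tested. At an unadjusted p under 0.05 there were 2 of the 8, Msx1 and Msx2, both lower in ASC, beside 14.7% of all genes tested in either direction and 7.9% lower. DESeq2 and limma-voom with quality weights also called 0 of the 8, with the same pair at an unadjusted p under 0.05. The pair changed with 1 library left out in edgeR: Msx1 was not in it without sham 2 (Id3 and Msx2 were), and Msx2 was not without sham 1 (Msx1 alone) or ASC 3 (Id3, Id4 and Msx1). The log2 fold change was negative for 6 and positive for 2, with a median of -0.26 beside 0.01 over all genes tested. The 2 groups overlapped for each of the 8 genes. They did not overlap for 9.06% of all genes tested, and at that share overlap in all of 8 genes does not set them apart.

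**Figure D1:**
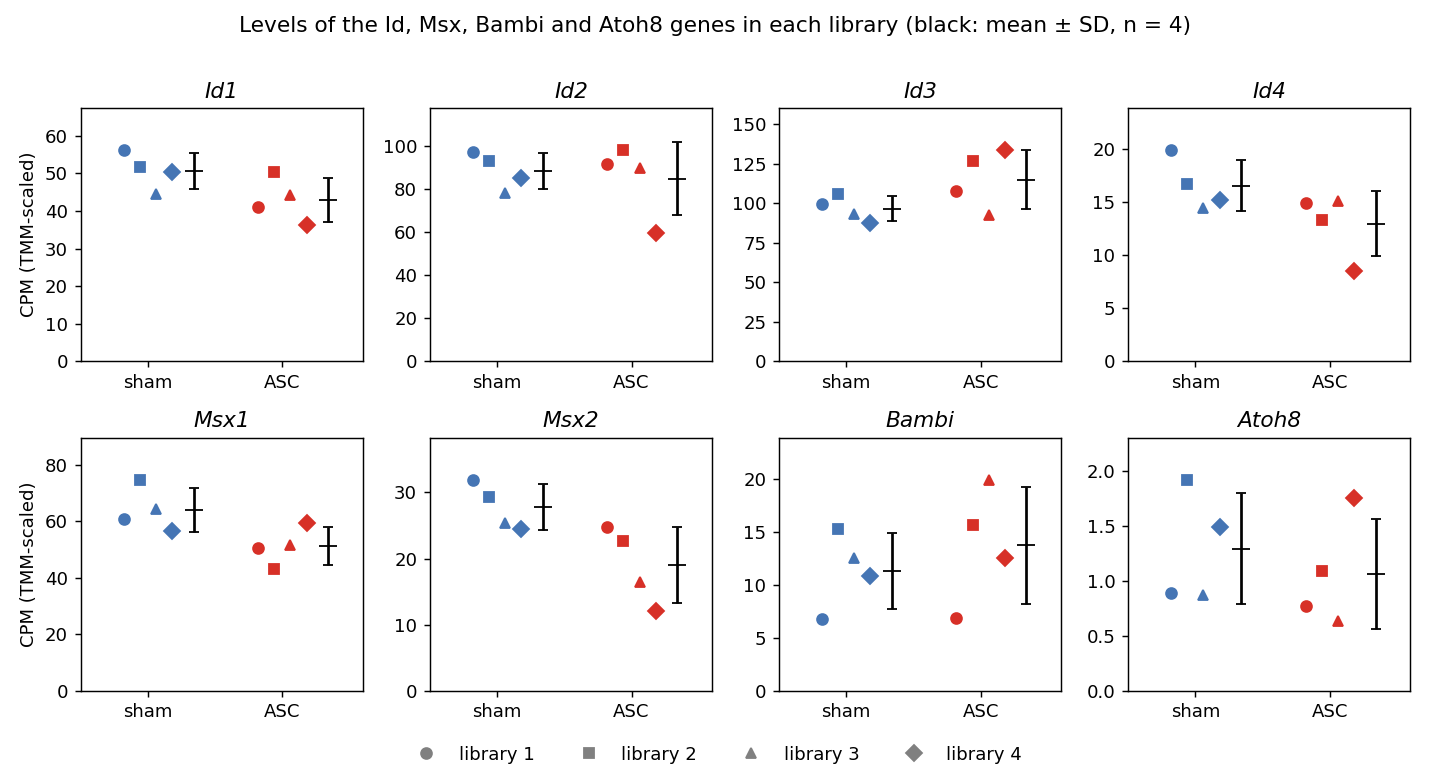
Level of each gene in every library, in CPM on a linear axis from 0, with sham in blue and ASC in red; marker shapes give the library number and the black bars the mean ± SD of 4 libraries. Msx2 lies at 24.5 to 31.9 CPM in sham and 12.1 to 24.7 CPM in ASC, and library ASC 4 (red diamond) is lowest for Id1, Id2, Id4 and Msx2 and highest for Id3.

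Id3 (ENSMUSG00000007872) had the highest level per length of the 8. It stood at 99.4, 106, 93.5 and 87.5 CPM in sham 1 to 4 and 108, 126, 92.3 and 133 CPM in ASC 1 to 4. ASC 1, 2 and 4 lay above all sham libraries and ASC 3 among them. The log2 fold change was 0.25 (SE 0.12, 95% confidence interval -0.01 to 0.51; edgeR adjusted p = 0.352), a fold of 1.19 with an interval of 0.995 to 1.43.

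Id1 (ENSMUSG00000042745), the member most often used as a readout of BMP Smads, pointed the other way. It was at 56.1, 51.7, 44.5 and 50.5 CPM in sham and at 41.0, 50.4, 44.3 and 36.3 CPM in ASC. ASC 1, 3 and 4 lay below every sham library, and ASC 2 among them. Its log2 fold change was -0.24 (SE 0.11, interval -0.48 to 0.01; edgeR adjusted p = 0.356).

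Id2 (ENSMUSG00000020644), which like Id3 is known to restrain epithelial-mesenchymal transition, had means of 88.2 ± 8.35 CPM (sham) and 84.6 ± 17.0 CPM (ASC). The sham libraries were at 96.8, 92.9, 78.1 and 85.0 CPM and the ASC libraries at 91.3, 97.7, 89.7 and 59.6 CPM. ASC 4, the library with the most pigment and red cell marker RNA, was far below the other 3. The log2 fold change of -0.06 (SE 0.14, interval -0.37 to 0.25; edgeR adjusted p = 0.891) became 0.07 without ASC 4.

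Id4 (ENSMUSG00000021379), the member with the most annotated exon sequence of the 4 Id genes, was at 19.8, 16.7, 14.4 and 15.2 CPM in sham and 14.9, 13.3, 15.1 and 8.50 CPM in ASC. ASC 2 and 4 lay below all sham libraries and the other 2 within their range. ASC over sham was -0.35 on the log2 scale (SE 0.18, interval -0.74 to 0.03; edgeR adjusted p = 0.387), and -0.20 without ASC 4. In GENCODE mouse release 21 the exons of Id4 share 82 bases with A330033J07Rik and 171 bases with Gm49291, both on the opposite strand. No source used here says whether the counting used strand, so reads of these genes may be mixed in. The exons of the other 7 genes overlapped no other gene.

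Per kilobase of annotated exon, the order of mean levels in sham was Id3, Id1, Id2, Msx1, Msx2, Id4, Bambi and Atoh8, with 53.9, 43.7, 36.2, 20.7, 8.47, 4.29, 2.23 and 0.515 CPM per kilobase. Over the sham libraries Id3 (48.8 to 59.0) and Id1 (38.4 to 48.4) did not overlap, while Id1 and Id2 (32.0 to 39.7) did. In ASC the order of the means was the same, Id3 (51.6 to 74.5) again lay above Id1 (31.3 to 43.4), and Id1 again overlapped Id2 (24.4 to 40.1). The lengths come from an annotation that may differ from the authors', which moves levels between genes but not the comparison of the groups.

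The 4 Id genes together gave 252 ± 20.7 CPM (sham) and 256 ± 22.8 CPM (ASC). Id1 gave 20.6%, 19.4%, 19.3% and 21.2% of the Id reads in sham 1 to 4 and 16.1%, 17.5%, 18.3% and 15.3% in ASC 1 to 4. The Id1 share was thus lower in each ASC library than in each sham library, by 3.33 percentage points on average and by 2.82 without ASC 4. The closest pair was sham 3, with an exact binomial 95% interval of 18.2% to 20.5% on 4758 Id reads, and ASC 3, with 17.2% to 19.5% on 4173. These intervals cover counting error only and they overlap. A share cannot tell fewer Id1 reads from more reads of the other Id genes. In CPM, Id1 lay within the sham range in ASC 2 (50.4) and below it in ASC 1, 3 and 4. How often such ratios separate the groups for other genes was not looked at.

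Id3 gave 36.5% to 40.6% of the Id reads in sham and 42.3%, 43.9%, 38.2% and 56.1% in ASC 1 to 4, so that ASC 3 lay within the sham range. Id2 gave 33.9% to 35.7% in sham and 35.8%, 34.0%, 37.2% and 25.1% in ASC. Id4 gave 6.24% to 7.29% in sham and 3.58% to 6.25% in ASC. Such shares do not depend on how libraries are scaled. They were looked at after the levels had been seen and are given without a test.

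**Figure D2:**
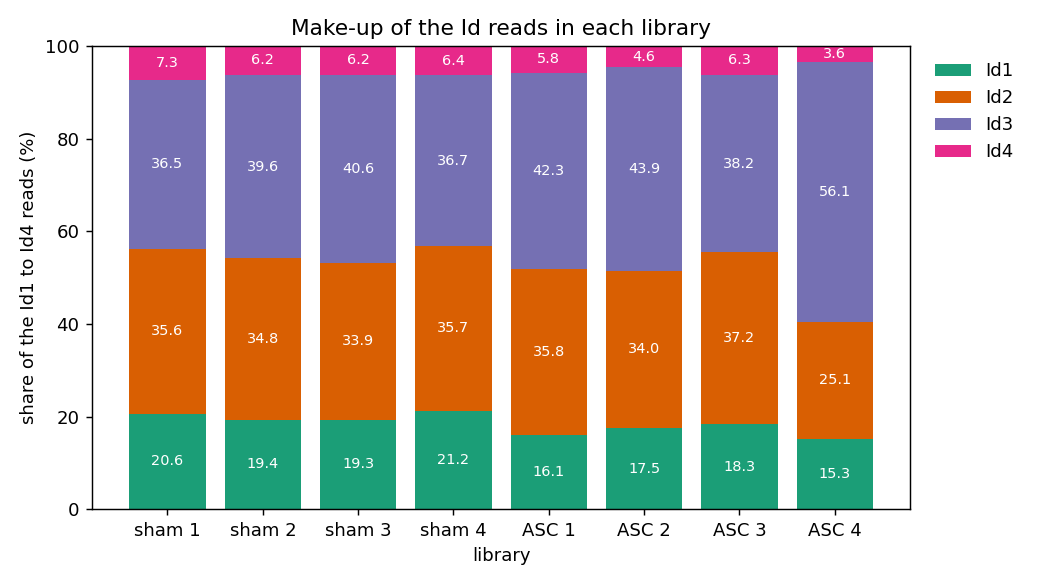
Share of Id1, Id2, Id3 and Id4 in the reads of the 4 genes, in percent, stacked for each of the 8 libraries. The Id1 segment is 19.3% to 21.2% in sham and 15.3% to 18.3% in ASC, and ASC 4 stands apart with 56.1% Id3.

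Msx1 and Msx2 encode homeodomain repressors that BMP induces in many epithelia and in the developing eye. Msx1 (ENSMUSG00000048450) was at 60.8, 74.5, 64.2 and 56.4 CPM in sham and 50.4, 43.0, 51.6 and 59.4 CPM in ASC. ASC 1, 2 and 3 lay below all sham libraries, and ASC 4 above sham 4 alone. On the log2 scale the difference was -0.33 (SE 0.12, interval -0.58 to -0.07; unadjusted p = 0.0163, edgeR adjusted p = 0.225), a level at 0.798 of sham.

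Msx2 (ENSMUSG00000021469) had the largest absolute log2 fold change of the 8 genes with all libraries in the fit. It was at 31.9, 29.3, 25.4 and 24.5 CPM in sham and 24.7, 22.6, 16.5 and 12.1 CPM in ASC. Only ASC 1 and sham 4 crossed, by less than 1 CPM. Its log2 fold change was -0.55 (SE 0.20; unadjusted p = 0.0221, edgeR adjusted p = 0.253), a level at 0.684 of sham with 0.935 as the upper bound of the 95% confidence interval. It passed in 1 of 18 other settings, the fit of all 31455 genes with a count in any library (edgeR adjusted p = 0.00141), while its adjusted p was 0.0761 to 0.453 in the other 17. Without ASC 4 the log2 fold change was -0.39, smaller in size than those of Atoh8 (-0.63) and Msx1 (-0.41).

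The ratio of Msx1 to Msx2 reads was 1.91 to 2.54 in sham. In ASC it was 2.04, 1.90, 3.13 and 4.92 in ASC 1 to 4, so that ASC 3 and 4 lay above the sham range, ASC 2 just below it and ASC 1 within it.

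Bambi (ENSMUSG00000024232) encodes a receptor-like protein without a kinase, which dampens BMP and TGF-beta receptors and is itself induced by them. It was at 6.74, 15.3, 12.5 and 10.8 CPM in sham and 6.82, 15.7, 19.9 and 12.6 CPM in ASC. Both groups spanned more than a 2-fold range, with sham 1 and ASC 1 lowest. Its log2 fold change was 0.28 (SE 0.35, interval -0.51 to 1.07; edgeR adjusted p = 0.766), and the fold interval ran from 0.702 to 2.10 of sham. With 1 library left out the log2 fold change was 0.05 (without ASC 3), 0.09 (without sham 1), 0.45 (without sham 2) or 0.50 (without ASC 1), and 0.21 to 0.33 in the other 4 cases.

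Atoh8 (ENSMUSG00000037621), a helix-loop-helix factor known as a BMP target in endothelium and liver, was close to the limit of measurement, with 18 to 41 reads in a sham library and 11 to 26 in an ASC library. That is 0.89, 1.91, 0.87 and 1.49 CPM in sham and 0.77, 1.09, 0.64 and 1.75 CPM in ASC. The groups covered nearly the same range (log2 fold change -0.28, SE 0.43, interval -1.22 to 0.65; edgeR adjusted p = 0.809). The fold interval of 0.431 to 1.57 shows what this depth and number of libraries could not tell apart. With 1 library left out the log2 fold change ran from -0.02 (without sham 2) to -0.63 (without ASC 4).

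With the group means taken out of log2 CPM, Pearson's r over the 8 libraries was 0.86 for Id1 with Id2, 0.92 for Id2 with Id4 and 0.88 for Id2 with Msx2. It was 0.71 for Id1 with Id4, 0.65 for Id1 with Msx2 and 0.80 for Id4 with Msx2. Id3 had -0.05 with Id1, -0.31 with Id2 and -0.50 with Id4. Without ASC 4 these became 0.87, 0.66 and 0.62 for the first 3 pairs, 0.40, 0.30 and 0.37 for the next 3 and 0.51, 0.61 and -0.02 for the Id3 pairs. Of the 6 pairs among Id1, Id2, Id4 and Msx2, Id1 with Id2 alone had as high an r without ASC 4, and the standing apart of Id3 from Id1 and Id2 rested on that library. Id3 with Msx2 went from -0.07 to 0.76 without ASC 4, and was then the highest pair of Msx2 among the 8 genes. The points share library, depth and scaling, and no p is given. Among 9544 other genes (9545 for Atoh8) whose average log2 CPM reached 3, the most alike by this measure were Sms, Ywhah and Tubb5 for Id2 (r of 0.99, 0.99 and 0.98), Myh9, Ubl3 and Tmem250-ps for Id3 (0.98, 0.97 and 0.96), Stk16, Otub1 and Grb2 for Id1 (0.97, 0.97 and 0.96) and Carhsp1, Tubb4b and Prkab2 for Id4 (0.98, 0.97 and 0.97). For Msx1 they were Slc39a12, Foxo1 and Gorab (0.98, 0.97 and 0.96), for Msx2 Tmem229a, Gm4204 and Smarcc1 (0.99, 0.98 and 0.98), for Bambi Zfp263, Ces1d and Penk (0.98, 0.97 and 0.97) and for Atoh8 Cystm1, Hax1 and Tspo (0.97, 0.97 and 0.95). None of these 24 genes passed the test between groups. Taken as the highest of that many values over 8 libraries, their r could be this high without any link. They were not recomputed without ASC 4.

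Upstream of these genes, 0 of 5 tested BMP ligands passed edgeR's test, also at an unadjusted p under 0.05. The 5 log2 fold changes were above 0, from 0.06 to 1.49, with 0.83 as the median. Bmp7, the most abundant ligand, averaged 64.1 ± 13.4 CPM (sham) and 72.0 ± 14.9 CPM (ASC), a log2 fold change of 0.17 (interval -0.23 to 0.56). Bmp2 had 13.6 ± 7.63 and 25.2 ± 13.4 CPM (0.89, interval -0.46 to 2.24), with sham libraries from 4.73 to 21.5 CPM and ASC libraries from 12.6 to 43.5 CPM, which overlap.

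Of the 10 tested receptors and coreceptors 0 passed, with a median of 0.00. At an unadjusted p under 0.05 there were 2, or 20%, beside 14.7% of all genes tested. The type I receptor gene Bmpr1a had means of 113 and 112 CPM (-0.01, interval -0.27 to 0.25), and the type II receptor gene Bmpr2 75.9 ± 12.1 and 75.4 ± 5.97 CPM (-0.01, interval -0.27 to 0.25). The pair at an unadjusted p under 0.05 was Acvrl1 and Eng, a receptor and coreceptor best known from endothelium, which were chosen after their values were seen. Acvrl1 was at 0.149 to 0.889 CPM in sham and 0.945 to 1.15 CPM in ASC, and Eng at 0.893 to 1.40 and 1.59 to 2.63 CPM (edgeR adjusted p = 0.312 and 0.303). Neither overlapped between groups (20% of this list, beside 9.06% of all genes tested), and both were low. Whether endothelial RNA, whose summed markers are given above, has a part in this was not tested.

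Of 14 tested extracellular antagonists and modulators 0 passed, with a median of 0.11. At an unadjusted p under 0.05 there were 3, or 21.4%, beside 14.7% of all genes tested. Crim1, a membrane protein that tethers BMPs, was abundant in both groups with 1624 ± 222 and 1740 ± 110 CPM (0.10, interval -0.19 to 0.39), and the secreted Fstl1 had 798 ± 79.8 and 789 ± 68.3 CPM (-0.02, interval -0.27 to 0.24). The classical antagonist gene Nog had too few counts to be tested. Of the 6 Smads of the BMP branch 0 passed (0 at an unadjusted p under 0.05), with a median of -0.01, Smad5 at -0.15 and Smad4 at 0.11. Of 13 ligases, corepressors and phosphatases that act on Smads 0 passed (1 at an unadjusted p under 0.05, or 7.69%), with a median of 0.03. Ctdsp2, a phosphatase gene, was at -0.15 and Tob1, an antiproliferative Smad corepressor gene, at -0.14.

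**Figure D3:**
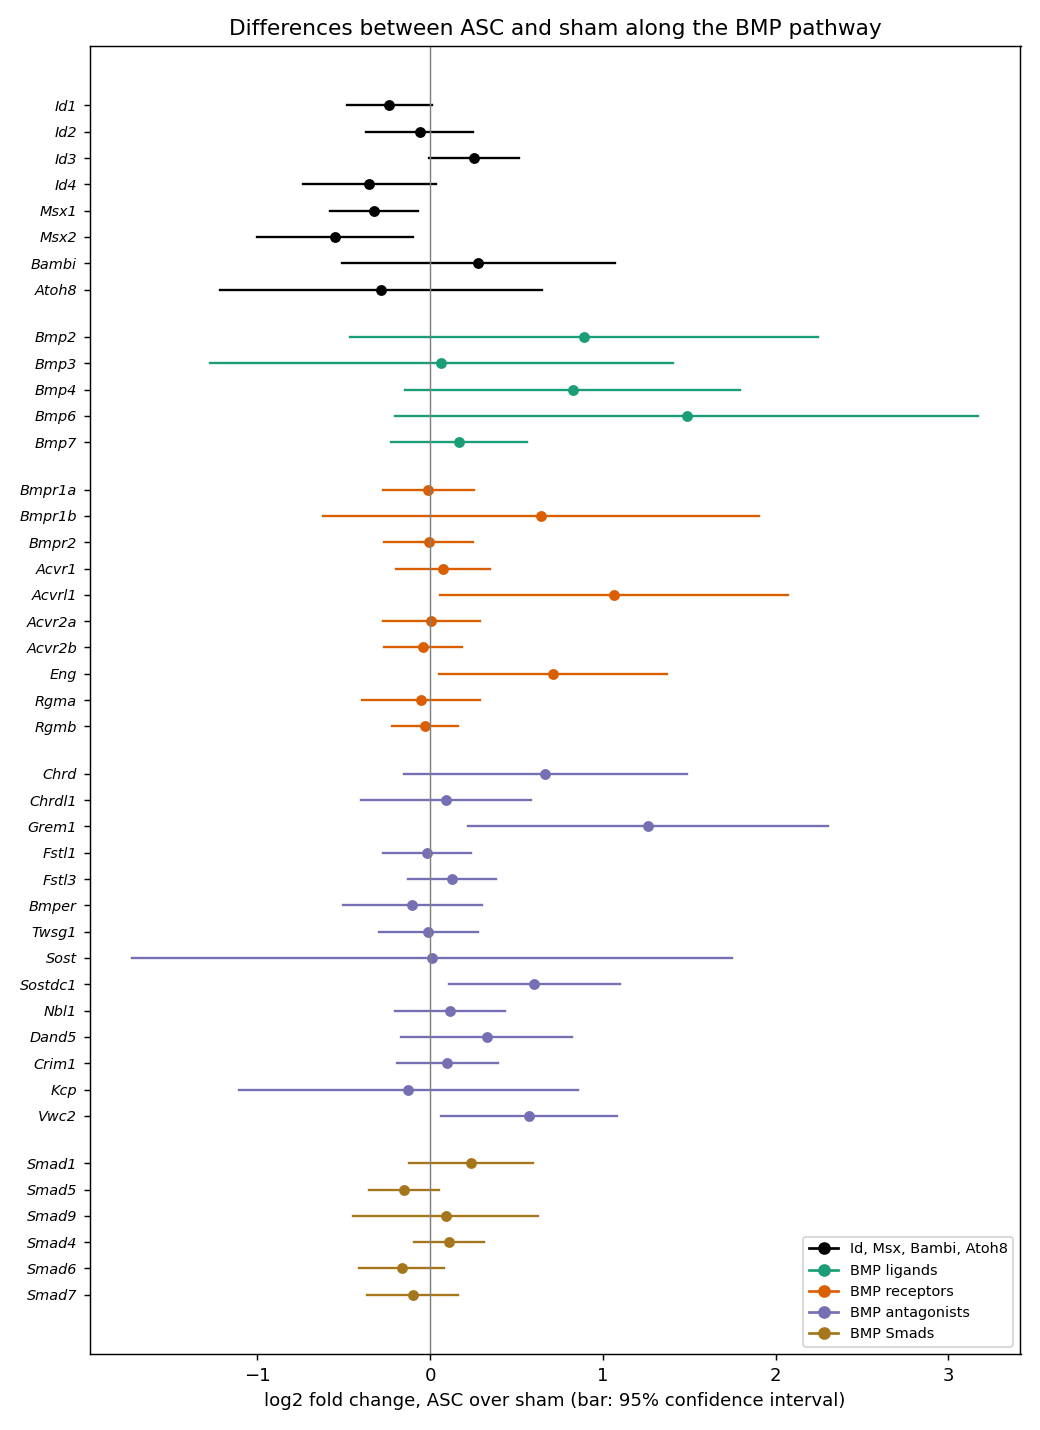
Log2 fold change of ASC over sham with its 95% confidence interval for the 8 genes (black) and the tested BMP ligands, receptors, antagonists and Smads. The intervals of Msx1 and Msx2 lie below 0, those of the other 6 genes include 0, and the abundant receptors Bmpr1a and Bmpr2 sit at -0.01.

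A list of 28 other genes that BMP can induce had 20 tested members, of which 0 passed in edgeR and the median was 0.08. At an unadjusted p under 0.05 there were 6, 3 in each direction, or 30% beside 14.7% of all genes tested. The list shares Smad6, Smad7, Smad9, Grem1, Nog and Zfp423 with the lists above. Hey1 had 49.6 ± 5.19 and 42.7 ± 10.7 CPM (-0.22, interval -0.59 to 0.15) and Smad6, the inhibitory Smad that BMP induces, 38.1 ± 1.64 and 34.0 ± 5.55 CPM (-0.17, interval -0.41 to 0.08). Hes1, a repressor that answers Notch as well and was singled out after its values were seen, was at 27.4 to 36.4 CPM in sham and 9.37 to 24.6 CPM in ASC (-0.91, SE 0.26; edgeR adjusted p = 0.164). Klf10, which TGF-beta also induces, was singled out in the same way and was at 9.34 to 12.5 and 14.4 to 27.5 CPM (0.80, SE 0.19; edgeR adjusted p = 0.0714). Neither overlapped between groups, and neither passed. In this list 4 of the 20 tested did not overlap (20%, beside 9.06% of all genes tested). The others were Gata3 (-0.74, edgeR adjusted p = 0.116) and Hey2 (-0.79, edgeR adjusted p = 0.184), both lower in ASC like Hes1.

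Id proteins act by binding E proteins. The E protein genes Tcf3, Tcf4 and Tcf12 had log2 fold changes of -0.19, 0.03 and 0.02, and 0 of 3 passed in edgeR (0 at an unadjusted p under 0.05). Tcf4 averaged 74.8 ± 8.59 CPM (sham) and 76.5 ± 5.00 CPM (ASC) (interval -0.18 to 0.25).

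Of 13 tested Msx cofactors and lens regulators 1 fell and 0 rose: Mab21l1, an eye development gene that is also among the lens epithelium markers, from 147 ± 19.2 to 75.3 ± 7.89 CPM (-0.96, SE 0.11; edgeR adjusted p = 0.00209). The list median was 0.03. Id genes are also known to be induced by growth factors and Egr1, and of 14 tested immediate early and related genes 6 rose and 0 fell, with a list median of 3.26. By size they began with Egr1 (5.38), Egr3 (4.49), Ier2 (3.40) and Atf3 (3.33). Beside these, the log2 fold changes of the 4 Id genes lay between -0.35 and 0.25.

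**Figure D4:**
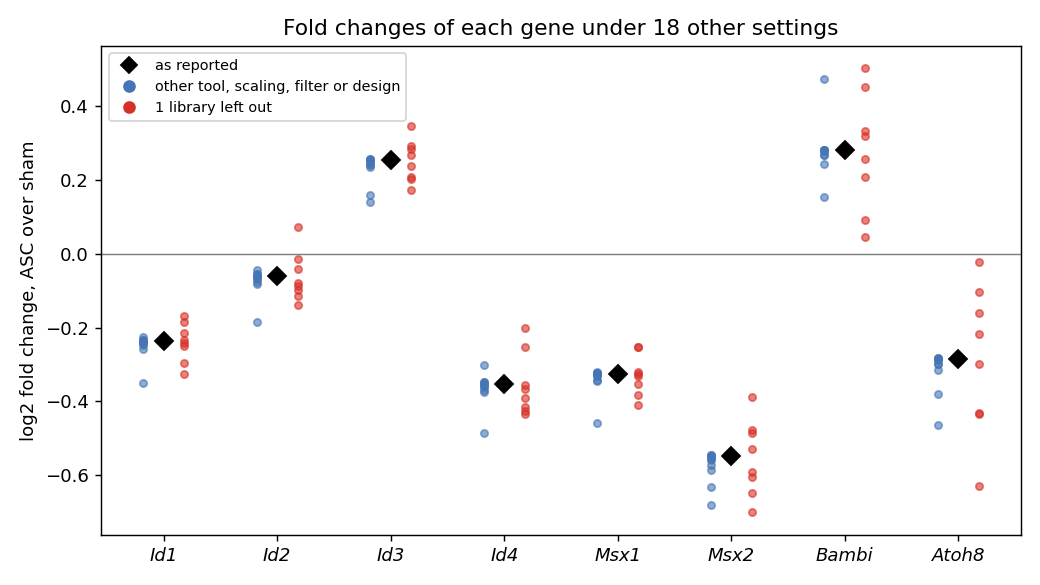
Log2 fold change of each of the 8 genes as reported (black), under 10 other tools, scalings, filters or designs (blue) and with 1 library left out (red). Msx2 stays between -0.70 and -0.39 and Id3 between 0.14 and 0.35, while Id2 crosses 0 to 0.07 without ASC 4.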

How the data were processed

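RNA was sequenced from 4 sham and 4 ASC lens capsule libraries. The authors deposited read counts per gene, whole numbers without normalization. CASAVA, fastp, HISAT2 2.0.5 and featureCounts 1.5.0-p3 were used, per the submitters' processing notes. Not given in the sources used here: genome build, annotation, strand setting and the rule for reads matching several genes. Symbols were matched for 54409 of 54532 identifiers.

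Counts were fitted with edgeR 4.0.16 in R 4.3.3 (filterByExpr, TMM, quasi-likelihood F test with robust estimation, ASC over sham, no covariate), and p-values were adjusted by Benjamini-Hochberg over the 15857 genes tested, with a threshold of 0.05. The SE is the log2 fold change divided by the square root of F. Levels are CPM on TMM-adjusted library sizes, with a prior count of 2 for log2 CPM. Marker sums were compared by two-sided exact permutation tests, adjusted over 10 lists. The fit was tested on simulated counts. Alternatives were DESeq2 1.42.0, limma-voom with quality weights (limma 3.58.1), other scalings and filters, a replicate block, and leaving out each library. Lengths are exon unions of GENCODE mouse release 21.

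The 8 genes and the lists were chosen with earlier results of these data known. The text names all 8 genes and, from each list, up to 4 members past the threshold with the largest change, or else the 2 most abundant. Any other gene named was picked once its values were known. For each of the 8, the 3 genes most alike are named. No 2 libraries held identical counts. The list of other helix-loop-helix factors is not reported here.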

Additional observations from a re-analysis of the deposited data

Results flagged for a closer look

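The summed level of 10 macrophage and leukocyte markers in ASC 1, 4.25 on the log2 CPM scale, lay far below the other 3 ASC libraries, which were at 5.98 to 6.28. It was the only one of 40 groups of 4 values looked at (the 8 genes, the marker sums, the summed Id level and the Id3 share per kilobase, in each group) in which 1 library stood apart by Dixon's criterion, and chance alone sets apart about 1 in 20. Of the 8 genes, ASC 1 had the lowest Bambi (6.82 CPM) and the highest Msx2 (24.7 CPM) of the ASC libraries and stood between the others for the remaining 6. Sham 1 was the lowest sham library both for these markers (10.7 CPM) and for Bambi (6.74 CPM).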

How the results depend on the processing

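None of the 8 genes passed in 17 of the 18 other settings, and 1, Msx2, passed without a low-count filter. All kept the sign of their log2 fold change in every setting except Id2, which was at -0.1393 to 0.0721 with 1 library left out and positive (0.0721) without ASC 4. Scaling by library totals alone moved the median of all genes from 0.01 to -0.12 and the 8 genes with it (Id3 to 0.14, Id1 to -0.35), and the difference of the summed Id level from 0.02 to -0.10. The number of genes called was 162 as reported, 593 with DESeq2, 712 without a low-count filter and 56 to 228 with 1 library left out. The pathway lists held 7 called genes as reported, 15 with DESeq2 and 18 without a low-count filter. The cause of these differences was not tested. With the replicate block 169 genes and 0 of the 8 were called, and Msx2 had an adjusted p of 0.0761 in edgeR. Same-numbered libraries did not consistently deviate together (r of 0.44, -0.003, 0.34 and -0.23). Sham 1 with ASC 1, at 0.44, had the highest r of any sham with any ASC library. Differently numbered libraries reached 0.38 (sham 4 with ASC 1) and 0.37 (sham 3 with ASC 4). These values do not settle whether same-numbered libraries are pairs, and the reported fit did not take them as pairs. The Id1 share was looked at after seeing the data. It was lower in each ASC library than in each sham library, so leaving 1 out could not change the sign. The size of the difference then ran from -3.84 to -2.82 percentage points. The differences in the marker sums of lens epithelium and of fibroblasts and keratocytes lay near 0. They changed sign with 1 library left out (-0.093 to 0.0601 and -0.0981 to 0.0288 on the log2 scale). The fibroblast and keratocyte sum was mostly Pdgfra and says little of the other markers in that list, of which Col1a1 rose. Depth was lowest for Atoh8, with 11 to 41 reads a library.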
